A study of Mus musculus with 23 samples.

Results

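Lungs of mice given recombinant human alpha1-antitrypsin (AAT) after inhaled endotoxin were compared with lungs of mice given the oxidized protein, by RNA-seq with 1 library per mouse. The comparison uses 10 of the study's 23 libraries, chosen by their treatment labels: LPS+recAAT replicates 6101 to 6105 (n = 5) and LPS+oxAAT replicates 5101 to 5105 (n = 5). All mice were male Balb/c. Those of both groups inhaled lipopolysaccharide (LPS), the endotoxin of Gram-negative bacteria, as an aerosol at 0.21 mg/ml in a session of 10 min a day over 3 days. An intraperitoneal injection of human AAT, at 4 mg/kg, followed each session by 1 h in all 10 mice, and their lungs were taken 6 h after the last of these injections. By the labels the groups differ only in the AAT preparation. Both preparations are human proteins given to mice. Nothing in the labels states which cells made the recombinant protein, how the other was oxidized or at what hour of the day lungs were taken. The other groups are used for their levels only: LPS+nAAT (native AAT, n = 5), LPS with no AAT (n = 5) and clean air (n = 3).

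AAT is a serpin, a protein that traps and inactivates serine proteases, above all the elastase of neutrophils. Oxidation of methionines in its reactive loop lowers that activity. Of the 3 genes called here, 2 belong to the circadian clock, a loop of transcription factors that runs in nearly every cell, those of the lung included. In this loop the activators CLOCK (or NPAS2) and BMAL1 (gene Arntl) bind E-boxes and switch on the Per and Cry genes, whose proteins inhibit them, as well as Nr1d1 and Dbp. NR1D1 (REV-ERB alpha) represses Arntl, Npas2, Cry1 and Nfil3, and the receptor RORA activates through the same sites.

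The libraries held 14.76 to 47.85 M gene counts in LPS+recAAT and 24.51 to 38.05 M in LPS+oxAAT, and levels below are in CPM, counts over the TMM-scaled library size. Lung markers were high in both groups, with the surfactant gene Sftpc at 11700 to 16500 CPM in LPS+recAAT and 11600 to 15600 CPM in LPS+oxAAT. The libraries fell into separate sets by a property that the labels do not mention: how many counts fell on mt-Nd6, a mitochondrial gene encoded on the other strand than mt-Nd5, as a share of mt-Nd5 counts. This share was 3.39% to 4.50% in the 5 LPS+recAAT libraries. In LPS+oxAAT it was 3.75% to 4.31% in replicates 5103, 5104 and 5105 and 0.388% to 0.825% in replicates 5101 and 5102. The libraries of the other 3 groups ran from 0.338% to 1.14%. The comparison is therefore given over all libraries (5 against 5) and within the set of 8 libraries with a high share (5 against 3). In a whole lung, fewer cells of a type and less RNA per cell cannot be told apart.

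The promoters of the called genes Nr1d1 and Igfbp3, and of the clock genes Ciart and Cry1, are shown because they bear on whether these genes carry the E-box of the clock activators close to their start. The sequences are from RefSeq (GRCm38.p6) and end at the last base before the outermost annotated start. Their places are chr11:98775378-98775627, minus strand, for Nr1d1, chr11:7213924-7214173, minus strand, for Igfbp3, chr3:95882252-95882478, minus strand, for Ciart, and chr10:85185065-85185304, minus strand, for Cry1. Capitals mark E-boxes.
Nr1d1: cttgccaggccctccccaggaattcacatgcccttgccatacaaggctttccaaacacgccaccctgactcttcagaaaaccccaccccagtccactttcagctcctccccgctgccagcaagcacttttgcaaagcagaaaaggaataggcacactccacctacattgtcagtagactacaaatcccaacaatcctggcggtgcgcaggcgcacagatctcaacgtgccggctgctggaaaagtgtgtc
Igfbp3: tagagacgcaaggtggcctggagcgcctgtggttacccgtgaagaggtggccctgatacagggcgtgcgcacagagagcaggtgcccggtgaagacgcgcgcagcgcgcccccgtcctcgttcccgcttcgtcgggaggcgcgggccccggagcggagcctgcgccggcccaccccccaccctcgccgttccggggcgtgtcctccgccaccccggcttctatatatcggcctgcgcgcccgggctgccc
Ciart: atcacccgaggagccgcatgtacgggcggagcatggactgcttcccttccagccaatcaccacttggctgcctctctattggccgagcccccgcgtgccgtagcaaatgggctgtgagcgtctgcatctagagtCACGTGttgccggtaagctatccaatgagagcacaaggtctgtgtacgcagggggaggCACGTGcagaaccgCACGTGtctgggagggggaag
Cry1: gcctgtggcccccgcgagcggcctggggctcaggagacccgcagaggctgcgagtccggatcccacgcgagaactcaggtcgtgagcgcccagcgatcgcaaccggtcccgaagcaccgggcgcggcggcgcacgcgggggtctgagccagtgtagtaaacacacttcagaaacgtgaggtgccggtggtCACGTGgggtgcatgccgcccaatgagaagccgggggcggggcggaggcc
Windows of the 250 bases before the RefSeq start were searched on both strands for 7 motifs: the E-box CACGTG, the CRE TGACGTCA, the AP-1 site TGANTCA, the heat shock element GAANNTTC, the CCAAT box, the half-site AGGTCA that REV-ERB and ROR receptors bind, and the D-box TTANGTAA. Over 32536 promoters of this length, 6.04% held the E-box, 1.56% the CRE, 6.73% the AP-1 site, 6.72% the heat shock element, 33.8% the CCAAT box, 14% the half-site and 2.03% the D-box. Of the 21 clock and called genes looked up, 18 had a sequence. Ciart held 3 E-boxes, which begin 93, 35 and 21 bases from the end of the sequence printed, and Cry1 held 1, which begins 50 bases from that end. Bhlhe41, Gadd45g, Per1 and Tef each held 1 as well, which makes 6 of 18 genes with an E-box. The windows of Per1, Tef and Npas2 lay wholly past the outermost annotated start, so the E-boxes of Per1 and Tef are not upstream of it. In the window of Dbp only 91 bases lay before that start. The windows of Nr1d1 and Igfbp3 held none of the 7 motifs, and that of Dbp held a CCAAT box alone. Variants of the E-box letters and sites outside the windows were not searched. A window with no match therefore does not show that the gene lacks a site of the clock activators. Per3 held 2 D-boxes, Hlf held 1 CRE, and Nr1d2, Nfil3 and Per1 each held 1 half-site. The half-sites of Nfil3 and Per1 also lay past the outermost annotated start.

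Lungs given recAAT carried less Nr1d1, Dbp and Igfbp3 RNA than lungs given oxAAT, and almost nothing else passed the test. Of 17148 genes tested with edgeR's quasi-likelihood test, 3 were called at an adjusted p under 0.05 (0.0175%), with 0 higher and 3 lower in LPS+recAAT. At an unadjusted p under 0.05 there were 497 genes (2.9%), 249 higher (1.45%) and 248 lower (1.45%). DESeq2's Wald test called 8 genes, 5 of them higher, and limma voom with sample quality weights called 11, 3 of them higher. All 3 genes were among the calls of both of these tests. Within the high mt-Nd6 set, 4 of 16427 genes were called (0.0244%): Nr1d1 and Igfbp3 lower (0.0122%), and Gadd45g and Hgh1 higher (0.0122%). A model of all libraries that includes the set called 2 genes (0.0117%), Nr1d1 and Igfbp3, both lower.

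**Figure D1:**
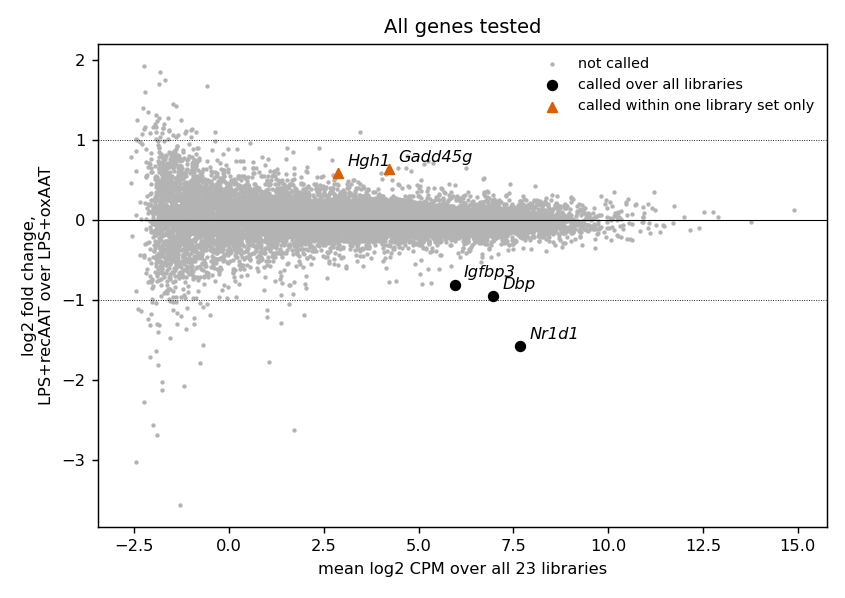
Log2 fold change of LPS+recAAT over LPS+oxAAT (y axis) against the mean log2 CPM over all 23 libraries (x axis) for the 17148 genes tested; dotted lines mark a 2-fold change. Nr1d1, Dbp and Igfbp3 (black) lie below the cloud of other genes, and the 2 genes called only within the high mt-Nd6 set (triangles) lie above 0.

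Nr1d1 encodes the nuclear receptor REV-ERB alpha, a repressor of the clock loop (ENSMUSG00000020889, GRCm38 chr11:98767932-98775333, minus strand). It had 78.3, 78.1, 111, 79.7 and 87.2 CPM in LPS+recAAT replicates 6101 to 6105, against 271, 351, 265, 202 and 211 CPM in LPS+oxAAT replicates 5101 to 5105. All 5 LPS+recAAT libraries lay well below all 5 LPS+oxAAT libraries, and LPS+oxAAT was the more spread group. The means were 86.8 ± 13.8 CPM in LPS+recAAT and 260 ± 59.6 CPM in LPS+oxAAT (SD, n = 5 each), or 2.99-fold lower with recAAT. The log2 fold change was -1.58 ± 0.16 (SE), with a 95% interval of -1.92 to -1.24 and an edgeR adjusted p of 1.48e-05. Against the 3 LPS+oxAAT libraries of the same set it was -1.38 (-1.65 to -1.12, adjusted p = 0.000805). Exons of Nr1d1 overlap those of Thra, the thyroid hormone receptor gene on the other strand, by 263 bases. Thra itself ran from 99.5 to 115 CPM in LPS+recAAT and from 105 to 133 CPM in LPS+oxAAT (log2 fold change -0.21 ± 0.07, adjusted p = 1).

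Dbp encodes a PAR bZIP transcription factor that carries the rhythm from the clock to output genes (ENSMUSG00000059824, chr7:45705088-45710203, plus strand). It had 77.8, 54.5, 89.8, 71.2 and 89.1 CPM in the LPS+recAAT libraries, against 143, 226, 153, 113 and 105 CPM in the LPS+oxAAT libraries. Again no LPS+recAAT library reached the lowest LPS+oxAAT library, but the gap was small beside the spread within LPS+oxAAT. The log2 fold change was -0.95 ± 0.17, with a 95% interval of -1.30 to -0.61 (edgeR adjusted p = 0.0366). The log2 fold change with each library left out in turn ran from -1.05 to -0.76. The call was lost in 7 of these 10 fits: leaving out any one of LPS+oxAAT 5101, 5102 or 5103 or LPS+recAAT 6101, 6102, 6104 or 6105 gave adjusted p-values from 0.0524 to 0.183. Within the set the log2 fold change was -0.70 (-1.05 to -0.35, edgeR adjusted p = 0.378), which DESeq2's Wald test called (adjusted p = 0.0218) and voom did not (0.109).

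Igfbp3 encodes the main carrier of insulin-like growth factors in the blood (ENSMUSG00000020427, chr11:7206086-7213923, minus strand), and is not part of the clock loop. It had 47.4, 40.8, 44.1, 44.1 and 39.7 CPM in LPS+recAAT, against 60.8, 99.6, 78.2, 72.6 and 67.3 CPM in LPS+oxAAT. The LPS+recAAT libraries lay close together and all below the LPS+oxAAT libraries. The means were 43.2 ± 3.07 CPM in LPS+recAAT and 75.7 ± 14.8 CPM in LPS+oxAAT (SD, n = 5 each). The log2 fold change was -0.81 ± 0.10 (-1.02 to -0.60, edgeR adjusted p = 0.00022), and -0.76 within the set (-0.94 to -0.57, adjusted p = 0.00459). With only the 10 libraries in the fit the adjusted p was 0.0718. Within the set it was 0.0999 without LPS+oxAAT 5103 and 0.0705 without 5104. Of the other 10 tested genes of the growth factors, their receptors and binding proteins, which were looked up after Igfbp3 was seen, none was called. Their log2 fold changes ran from -0.24 for the receptor Igf2r to 0.07 for Igfbp6.

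The other groups place these levels. Nr1d1 ran from 179 to 306 CPM in LPS+nAAT, from 138 to 235 CPM in LPS and from 244 to 309 CPM in air, so that the LPS+recAAT libraries were the lowest of all 23. Relative to LPS its log2 difference was -0.98 ± 0.16 for LPS+recAAT and 0.60 ± 0.16 for LPS+oxAAT (SE), comparisons that share the LPS libraries. Igfbp3 ran from 51.9 to 62.1 CPM in LPS+nAAT, from 47.2 to 61.3 CPM in LPS and from 83.3 to 88.4 CPM in air. Its log2 difference from LPS was -0.35 ± 0.10 for LPS+recAAT and 0.46 ± 0.10 for LPS+oxAAT. For Dbp the levels were 108 to 161 CPM in LPS+nAAT, 90.6 to 120 CPM in LPS and 172 to 224 CPM in air, and the differences from LPS were -0.47 ± 0.17 for LPS+recAAT and 0.48 ± 0.16 for LPS+oxAAT. For all 3 genes, then, LPS lay between the AAT groups on the fitted scale. No LPS library had a high mt-Nd6 share, so a difference between LPS+recAAT and LPS cannot be told apart from one between the sets.

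**Figure D2:**
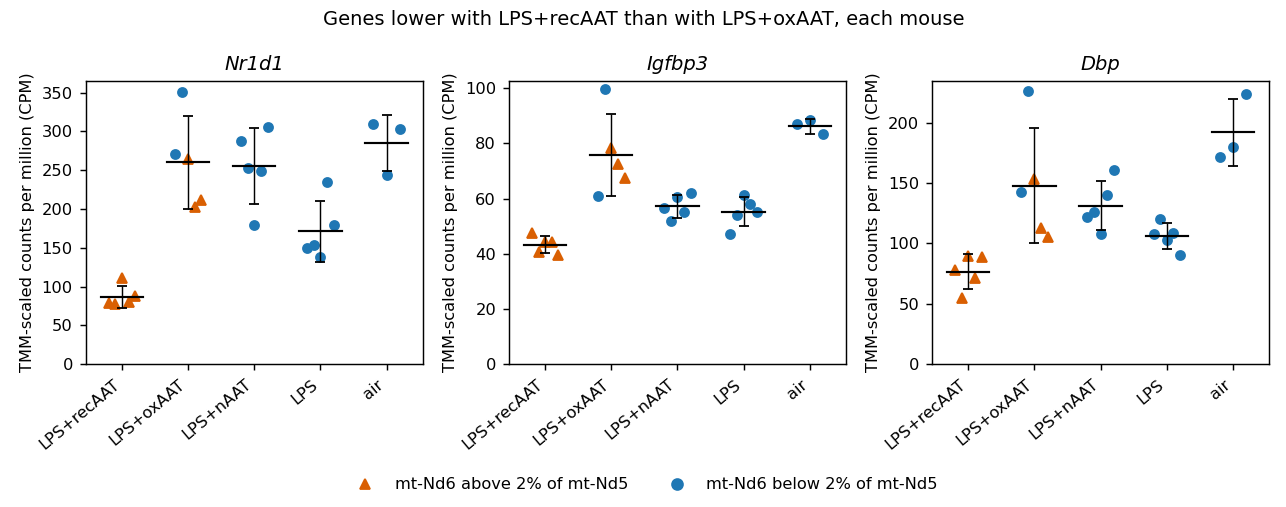
TMM-scaled CPM (y axis, from 0) of Nr1d1, Igfbp3 and Dbp in every mouse by group (x axis), with bars for the mean ± SD; triangles are libraries with mt-Nd6 above 2% of mt-Nd5 and circles those below. In each panel all 5 LPS+recAAT libraries lie below all 5 LPS+oxAAT libraries, whichever the symbol.

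Of the 18 clock genes, all tested, 2 were called (Nr1d1 and Dbp, both lower) and 7 had an unadjusted p under 0.05 (against 2.9% of all genes), 4 with positive and 3 with negative differences. The list holds activators and repressors, and its members differed in both directions, 9 with positive and 9 with negative values. Among the activators, Npas2 had a log2 fold change of 0.66 ± 0.21 (0.23 to 1.08, edgeR adjusted p = 1). It ran from 4.79 to 8.32 CPM in LPS+recAAT and from 2.59 to 5.28 CPM in LPS+oxAAT, and the groups overlapped. Arntl had 0.44 ± 0.15 (0.14 to 0.75), with 8.21 to 12.8 CPM in LPS+recAAT and 6.01 to 8.80 CPM in LPS+oxAAT. Clock itself had -0.02 (-0.41 to 0.38). Npas2 had 0.65 (0.14 to 1.17) and Arntl 0.35 (0.01 to 0.69) within the high mt-Nd6 set.

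Rora, which encodes an activating receptor, had a log2 fold change of 0.02 (-0.38 to 0.42). The repressor gene Cry1 had 31.6, 36.2, 31.2, 33.5 and 32.2 CPM in LPS+recAAT and 18.2, 13, 20.9, 20.8 and 32.4 CPM in LPS+oxAAT. A single LPS+oxAAT library, 5105, stood at the level of LPS+recAAT, and the other 4 lay below every LPS+recAAT library. The log2 fold change of Cry1 was 0.65 ± 0.16 (adjusted p = 0.575), and 0.86 without 5105 (adjusted p = 0.00521). With all libraries, voom with quality weights also called it (0.62, adjusted p = 0.024). Cry1 had 0.41 (0.11 to 0.71) within the high mt-Nd6 set and was not called there.

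**Figure D3:**
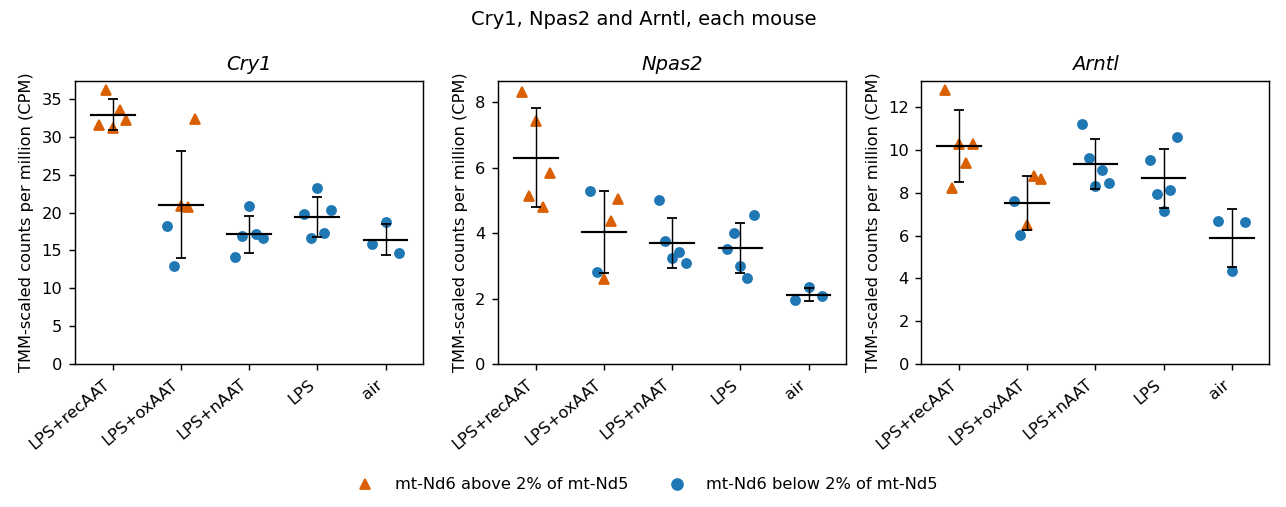
TMM-scaled CPM (y axis, from 0) of Cry1, Npas2 and Arntl in every mouse by group (x axis), with bars for the mean ± SD and the same symbols for the library sets. All 3 genes overlap between LPS+recAAT and LPS+oxAAT, and 1 LPS+oxAAT library, 5105, reaches the LPS+recAAT level of Cry1 at 32.4 CPM.

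Other repressors of the loop were measured with intervals that span or approach 0. Per1 had a log2 fold change of 0.33 (-0.05 to 0.71), Per2 had 0.34 (-0.02 to 0.71), Per3 had 0.10 (-0.22 to 0.41) and Cry2 had -0.04 (-0.21 to 0.14). Bhlhe40 and Bhlhe41, which encode a pair of E-box-binding repressors, had -0.16 (-0.34 to 0.02) and -0.18 (-0.42 to 0.05). Ciart, an inhibitor of CLOCK and BMAL1 whose promoter held the 3 E-boxes above, had -0.48 ± 0.19 (-0.87 to -0.09, edgeR adjusted p = 1). It ran from 7.22 to 11.9 CPM in LPS+recAAT and from 7.32 to 17.9 CPM in LPS+oxAAT. Ciart had -0.25 (-0.68 to 0.18) within the set. Nr1d2, which encodes the second REV-ERB receptor, had -0.29 ± 0.14 (-0.57 to 0) over all libraries and -0.46 (-0.67 to -0.25, adjusted p = 0.378) within the set. Its range was 143 to 170 CPM in LPS+recAAT and 152 to 251 CPM in LPS+oxAAT. Nfil3, the repressor that competes with DBP for D-boxes, had 0.40 ± 0.15 (0.09 to 0.72) over all libraries and 0.23 (-0.19 to 0.65) within the set. Tef and Hlf, the other PAR bZIP factors of Dbp's family, had 0.03 (-0.16 to 0.22) and -0.04 (-0.41 to 0.34). Within the set, 1 clock gene was called (Nr1d1) and 6 had an unadjusted p under 0.05, 3 with positive and 3 with negative differences. Of all genes 10.3% did so within the set, 5.52% with positive and 4.77% with negative differences.

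**Figure D4:**
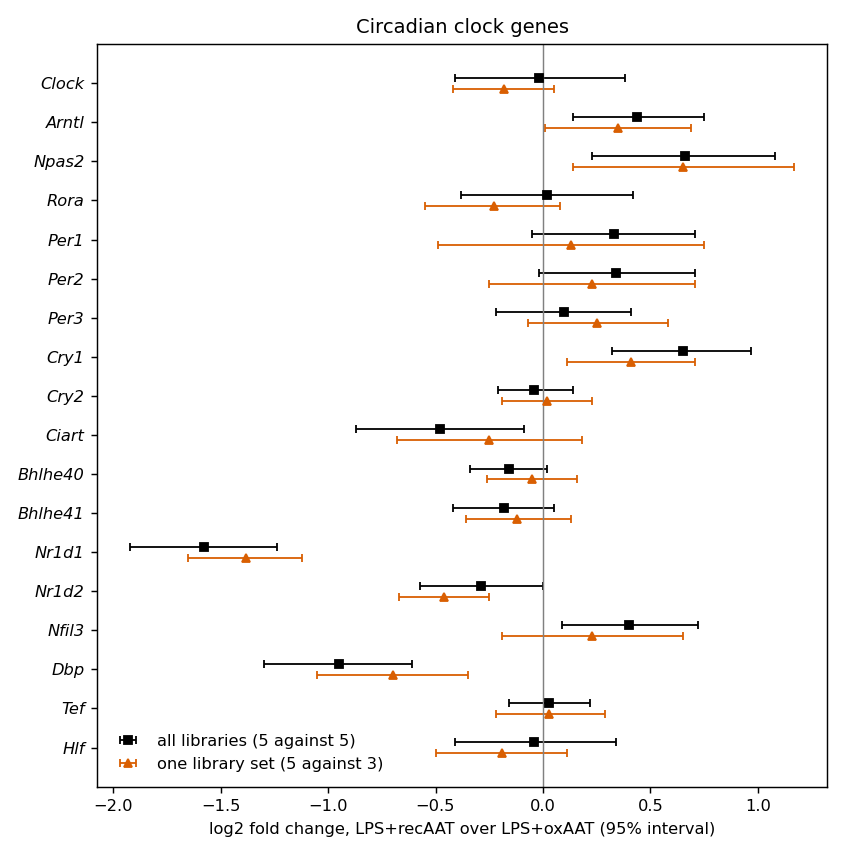
Log2 fold change of LPS+recAAT over LPS+oxAAT (x axis) with its 95% interval for the 18 clock genes (y axis), over all libraries (squares) and within the high mt-Nd6 set (triangles). Nr1d1 and Dbp stand at the left, at -1.58 and -0.95, and Npas2 and Cry1 at the right, at 0.66 and 0.65.

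Gadd45g and Hgh1 were called higher within the set only. Gadd45g, a stress-induced regulator of growth arrest, had 24, 22.2, 19.4, 19.6 and 23.8 CPM in LPS+recAAT and 17.8, 15.9, 12.1, 12.9 and 12.1 CPM in LPS+oxAAT, with no overlap. Its log2 fold change was 0.82 within the set (0.59 to 1.05, edgeR adjusted p = 0.0153) and 0.63 over all libraries (0.24 to 1.02, adjusted p = 1). Of its relatives, Gadd45b had 0.31 ± 0.13 and Gadd45a 0.05 ± 0.12 over all libraries, and neither was called. Hgh1, which encodes a chaperone for elongation factor 2 in yeast, ran from 7.25 to 9.76 CPM in LPS+recAAT. In LPS+oxAAT it had 7.16 and 9.60 CPM in the 2 libraries with a low mt-Nd6 share and 3.77, 3.74 and 4.25 CPM in the other 3. Its log2 fold change was 1.12 within the set (0.79 to 1.45, adjusted p = 0.0194) and 0.58 over all libraries (0 to 1.15, adjusted p = 1). Both calls were lost without LPS+oxAAT 5103 (adjusted p of Gadd45g 0.249, of Hgh1 0.299), without 5104 (0.141 and 0.255) and without 5105 (both 0.119), and that of Hgh1 also without LPS+recAAT 6103 (0.0676) or 6104 (0.0834). The log2 fold changes with each of the 8 libraries left out stayed at 0.79 to 0.86 for Gadd45g and 1.07 to 1.18 for Hgh1. The next genes by p within the set in that direction were Arrdc2, an arrestin-domain gene (0.64, edgeR adjusted p = 0.0973), and Osgin1, an oxidative stress-induced growth inhibitor (0.52, adjusted p = 0.378). Arrdc2 was called by DESeq2's Wald test (adjusted p = 9.21e-05), by voom (0.0301), with no filter on low counts (0.0131) and without LPS+recAAT 6105 (0.0442). Osgin1 was called by the Wald test (adjusted p = 0.00559).

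For most genes the data bound the difference between the preparations. Of 14774 genes with a mean log2 CPM of at least 0, 14378 (97.3%) had a 95% interval that lay within a 2-fold change in either direction. Only 9 of them had a fitted change of at least 2-fold, and of these Nr1d1 alone was called. Of the 119 genes whose groups did not overlap (0.694%), 67 were higher (0.391%) and 52 lower (0.303%) in LPS+recAAT. A difference within these bounds is not shown to be absent in a gene that was not called.

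Genes of the response to LPS were among those not called. For the list counts below, 2.9% of all genes had an unadjusted p under 0.05 over all libraries, 1.45% in each direction. In the high mt-Nd6 set 10.3% of all genes did, 5.52% with positive and 4.77% with negative differences. Whatever the p, 8810 of 17148 genes had positive and 8338 negative differences over all libraries. Of 18 tested inflammatory cytokines and chemokines, 0 were called and 3 had an unadjusted p under 0.05, all with positive differences. Within the set 1 of 17 had an unadjusted p under 0.05, with a negative difference. The list's median log2 fold change was 0.15, and 0.01 to 0.22 with each library left out in turn, lowest without LPS+recAAT 6105. Its summed level overlapped, at 1400 to 2080 CPM in LPS+recAAT and 1730 to 2050 CPM in LPS+oxAAT. Cxcl5, a chemokine for neutrophils made by epithelium, had 32.7, 10.8, 27.1, 13.9 and 40.2 CPM in LPS+recAAT and 11.3, 5.35, 8.95, 14.6 and 18.2 CPM in LPS+oxAAT. Both groups varied several-fold and overlapped, and the log2 fold change was 1.10 ± 0.33 (0.43 to 1.78, edgeR adjusted p = 1). Air libraries averaged 0.677 ± 0.21 CPM (SD, n = 3). Cxcl3, a chemokine of the same kind, had 0.73 ± 0.33 and Ccl12, which attracts monocytes, 0.61 ± 0.29. Within the set the intervals of these 3 genes spanned 0. There Cxcl5 had 0.85 (-0.31 to 2), Cxcl3 0.42 (-0.36 to 1.2) and Ccl12 0.52 (-0.01 to 1.04). The cytokine gene Tnf had 0.20 (-0.22 to 0.61) and Il1b 0.16 (-0.24 to 0.56).

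Acute phase and secreted antimicrobial genes had a median of 0.02 over 23 tested members, with 0 called and 1, Saa2, with an unadjusted p under 0.05. Saa2 was low in both groups, at 0.243 to 0.704 CPM in LPS+recAAT and 0.0796 to 0.282 CPM in LPS+oxAAT. Saa3, the serum amyloid made in the inflamed lung, ran from 185 to 362 CPM in LPS+recAAT and from 162 to 295 CPM in LPS+oxAAT. Its log2 fold change was 0.12 (-0.29 to 0.54), where air averaged 4.81 CPM and LPS 286 CPM. Lcn2, an antimicrobial protein that binds iron carriers of bacteria, had 0.22 (-0.04 to 0.49). Of 18 NF-kB subunits and feedback genes none was called and the median was 0.12 (0.06 without LPS+oxAAT 5103). None had an unadjusted p under 0.05 over all libraries. Inside the high mt-Nd6 set the median was 0.13 and again none was called. There 5 of 18 had an unadjusted p under 0.05, all with positive differences (against 5.52% of all genes). Nfkbia, the inhibitor of NF-kB, had 0.20 (-0.01 to 0.42), with 148 to 171 CPM in LPS+recAAT and 125 to 156 CPM in LPS+oxAAT.

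Neutrophil markers had a median of 0.20 over 21 tested members (0.10 without LPS+recAAT 6105, 0.31 without 6102), with 0 called. At an unadjusted p under 0.05 there were 3, 2 with positive and 1 with negative differences. The negative one was Hdc, at -0.38 (-0.66 to -0.1), and -0.26 (-0.52 to 0.01) within the set. The 20 members tested in the set had a median of 0.29, with 0 called. Of them 5 had an unadjusted p under 0.05, all with positive differences (against 5.52% of all genes). Clec4e, a lectin receptor of myeloid cells for microbial glycolipids, had 17.2, 21.7, 22.5, 18.9 and 24.8 CPM in LPS+recAAT and 15.4, 10.7, 14.2, 17 and 13.4 CPM in LPS+oxAAT. The groups did not overlap by a narrow margin, and the log2 fold change was 0.58 ± 0.12 (edgeR adjusted p = 0.219, DESeq2 Wald adjusted p = 0.0205). S100a8, a calcium-binding protein abundant in neutrophils, had 0.71 ± 0.32 (0.04 to 1.38). The summed level of these markers was 528 to 784 CPM in LPS+recAAT and 512 to 659 CPM in LPS+oxAAT.

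Alveolar macrophage markers had negative differences in 15 of 17 members (median -0.22, and -0.11 without LPS+recAAT 6101). Of these markers 0 were called and 5 had an unadjusted p under 0.05 (against 2.9% of all genes). Siglecf, a surface lectin of these cells, ran from 11.8 to 17.4 CPM in LPS+recAAT and from 16.2 to 22.8 CPM in LPS+oxAAT (log2 fold change -0.47 ± 0.14, edgeR adjusted p = 1). Fabp1 had -0.58 ± 0.17, and Ear2, an eosinophil-type ribonuclease, -0.39 ± 0.15. The summed level was 1540 to 2190 CPM in LPS+recAAT and 1740 to 2250 CPM in LPS+oxAAT, so the libraries overlapped. The part of cell numbers in the results above was not tested.

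Immediate early genes had a median of -0.03 over 29 tested members (-0.03 within the set), 14 with positive and 15 with negative differences. Of these, 0 were called and 8 had an unadjusted p under 0.05 (against 2.9% of all genes), 7 of them with negative differences. The exception was Gadd45b, at 0.31 (0.05 to 0.58). Within the set 7 members had an unadjusted p under 0.05 (against 10.3% of all genes), 2 with positive and 5 with negative differences. Nr4a1, an orphan nuclear receptor induced within minutes of a stimulus, had 24.7, 15.4, 20.2, 21.3 and 24.2 CPM in LPS+recAAT and 41.5, 45.4, 38.3, 39.7 and 19.7 CPM in LPS+oxAAT. As for Cry1, replicate 5105 was the LPS+oxAAT library at the level of LPS+recAAT. The log2 fold change of Nr4a1 was -0.80 ± 0.22 (adjusted p = 0.926). Egr1, another early transcription factor, was also lowest in 5105 among the LPS+oxAAT libraries. It had 44.8, 21.7, 33.1, 40.7 and 31.7 CPM in LPS+recAAT and 74.1, 56.2, 65.7, 72.8 and 28.3 CPM in LPS+oxAAT (-0.79 ± 0.27, edgeR adjusted p = 1). Fos had -0.39 ± 0.14 and Dusp1, a phosphatase that shuts off MAP kinases and is also induced by glucocorticoids, -0.38 ± 0.15. Within the set Nr4a1 had -0.62 (-1.1 to -0.14) and Egr1 -0.7 (-1.47 to 0.07).

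Replicate 5105 also stood apart at the heat shock genes. Hspa1b, an inducible HSP70 chaperone gene, had 30.3 CPM in 5105 and 1.63 to 2.4 CPM in the other 4 LPS+oxAAT libraries, against 2.24 to 5.30 CPM in LPS+recAAT. Hspa1a had 18.1 CPM in 5105 and 1.39 to 2.33 CPM in the other 4, against 1.63 to 4.64 CPM in LPS+recAAT. These 2 genes are near-identical copies, so the split of reads between them is uncertain. Their log2 fold changes were -1.19 and -0.78 over all libraries and 0.68 and 0.60 without 5105, and none of these passed. Of 21 chaperone genes 20 had negative differences (median -0.13, and -0.32 within the set). Without 5105 the median was 0.14. Nr1d1 and Igfbp3 stayed called over all libraries without 5105, as they did without any other single library.

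Cell cycle genes had positive differences in 25 of 26 members, against 8810 of all 17148 genes (median 0.17, and 0.10 within the set). Of these members 0 were called and 5 had an unadjusted p under 0.05 (against 2.9% of all genes). Their summed level overlapped, at 391 to 480 CPM in LPS+recAAT and 366 to 471 CPM in LPS+oxAAT. Ccnb1, the cyclin that starts mitosis, ran from 7.16 to 9.28 CPM in LPS+recAAT and from 5 to 7.46 CPM in LPS+oxAAT (0.47 ± 0.17). Aurkb, a kinase of chromosome segregation, ran from 5.72 to 8.10 CPM in LPS+recAAT and from 4.47 to 5.61 CPM in LPS+oxAAT (0.41 ± 0.15, edgeR adjusted p = 1). Glucocorticoid responsive genes had a median of 0.14 over 21 members (0.08 to 0.22 with each library left out in turn), 0 called and 5 at an unadjusted p under 0.05. Differences were positive in 14 members and negative in 7, and among the 5 they were positive in 4 and negative in 1. Within the set 4 members had an unadjusted p under 0.05 (against 10.3% of all genes), 2 with positive and 2 with negative differences. Tsc22d3 (GILZ), a mediator of glucocorticoid action, had 0.42 (-0.02 to 0.85) and the receptor co-chaperone Fkbp5 0.39 (-0.16 to 0.93). Within the set Tsc22d3 had 0.19 (-0.55 to 0.92) and Fkbp5 0.11 (-0.74 to 0.97). Nrf2 and oxidative stress genes had a median of 0.10 over all libraries and 0.03 within the set, with none of 21 called.

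Of 16 alveolar type 2 markers (median -0.09) none was called and 3 had an unadjusted p under 0.05 (against 2.9% of all genes). Hc, complement component 5, had -0.32 ± 0.11 (edgeR adjusted p = 1), and -0.51 with voom and quality weights, which called it (adjusted p = 0.0329). Endothelial markers and adhesion molecules had negative differences in 19 of 22 members (median -0.12, and -0.18 within the set), with 0 called. Kdr, the main receptor for vascular endothelial growth factor, ran from 378 to 450 CPM in LPS+recAAT and from 445 to 570 CPM in LPS+oxAAT (-0.29 ± 0.11). Fibroblast, smooth muscle and collagen genes were negative in 19 of 22 (median -0.14), 0 called, among them Pdgfrb, a growth factor receptor of pericytes and fibroblasts (-0.47 ± 0.14).

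Genes of proteins secreted by the liver were at low levels, and all 11 tested had negative differences. Of them 0 were called and 6 had an unadjusted p under 0.05 (against 2.9% of all genes). The median log2 fold change was -1.57, and -0.95 without LPS+oxAAT 5101. Within the set it was -0.44 over the 6 members tested there, 1 of them with an unadjusted p under 0.05. Apoa2 and Fgb, at -3.56 and -3.02 over all libraries, were among those not tested there. In the model of all libraries that includes the set, the median over all 11 members was -1.53, with 3 at an unadjusted p under 0.05. Alb, the albumin gene, had 0.776, 1.18, 0.84, 1.55 and 1.45 CPM in LPS+recAAT and 7.64, 2.23, 6.47, 1.07 and 2.44 CPM in LPS+oxAAT. The 2 highest libraries, LPS+oxAAT 5101 and 5103, were in different library sets. The summed level of the list was 8.4 to 10.7 CPM in LPS+recAAT and 10.5 to 27.6 CPM in LPS+oxAAT. Serpina1b, a mouse counterpart of the AAT gene with near-identical copies, ran from 4.68 to 5.66 CPM in LPS+recAAT and from 4.54 to 6.77 CPM in LPS+oxAAT (-0.09, -0.49 to 0.32). Of 37 gene lists described or counted, the clock list was the one with a called member, and the summed level overlapped between the 5 LPS+recAAT and the 5 LPS+oxAAT libraries in all 37. Against the 3 LPS+oxAAT libraries of the same set 1 list did not overlap, the endothelial one, at 5410 to 5980 CPM in LPS+recAAT and 6150 to 6630 CPM in LPS+oxAAT.

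**Figure D5:**
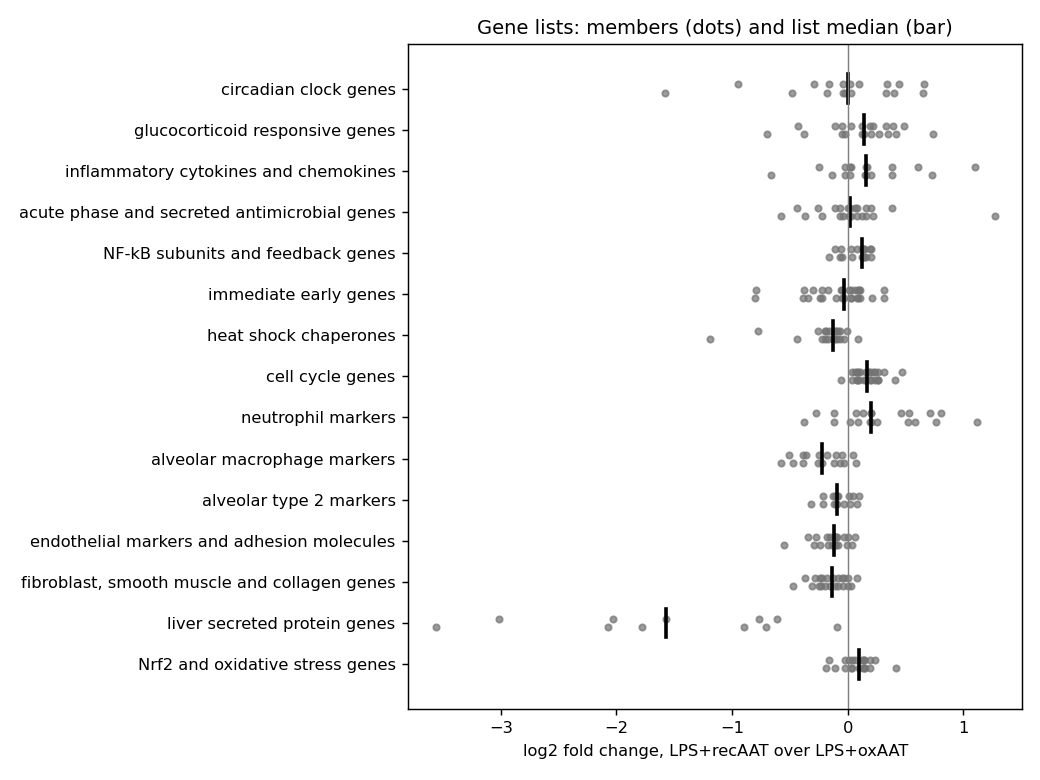
Log2 fold change of LPS+recAAT over LPS+oxAAT (x axis) of each tested member (dots) of 15 gene lists (y axis), with the list's median as a bar. The medians lie between -0.22 and 0.20, except for the liver list at -1.57 (-0.44 over the 6 members tested within the high mt-Nd6 set). The summed level of the liver list is at most 27.6 CPM in any library of these groups.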

How the data were processed

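Lung RNA of each mouse was made into a stranded poly(A) library from 200 ng, per the labels' protocols. The authors deposited raw counts per Ensembl gene for 41388 genes, and the file's 5 summary lines entered neither tests nor totals. The submitters' processing notes name HTSeq 0.11.1, STAR 2.4.0.1, Trimmomatic in versions 0.36 and 0.38, FastQC 0.11.8 and the build GRCm38. The strand setting of the counting was not given in the sources used here, nor was the annotation release. Reads on no feature were 8.47% to 13.13% of reads tallied in LPS+recAAT and 7.99% to 10.32% in LPS+oxAAT. Symbols and positions came from GENCODE release M21 (GRCm38).

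The deposited counts of all 23 libraries were fitted in a single model of 5 group means by edgeR 4.0.16 under R 4.3.3, with its quasi-likelihood F test (robust, TMM factors 0.978 to 1.028, filterByExpr, two-sided). Benjamini-Hochberg adjustment ran over all genes tested, and called means an adjusted p under 0.05. The contrast was LPS+recAAT minus LPS+oxAAT. The same test was run on the 8 libraries whose mt-Nd6 count exceeds 2% of mt-Nd5. SEs and 95% intervals came from the F statistic, and the script was tested on simulated data. Replicates are separate mice and differed beyond sampling noise. With 1 library per mouse, the spread behind the p-values holds differences between mice and between library preparations together. Over all libraries it also holds the split of LPS+oxAAT between the sets. Alternatives used DESeq2 1.42.0, limma 3.58.1 voom, an offset for transcript GC content and other settings.

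The comparison, the members and the 37 gene lists were chosen with earlier results of these data known. Named genes were those called over all libraries and within the set (up to 12 per direction, mean log2 CPM of at least 0), those called over all libraries only with groups that do not overlap (up to 5 per direction), up to 4 members of smallest p per list described, and the 4 of smallest p within the set in a direction with no gene called in both. The clock list is given except for 1 gene, which is not reported here. Thra, the genes of the growth factor and Gadd45 families, and Saa3, Il1b, Tnf, Tsc22d3, Fkbp5, Sftpc and Serpina1b were named outside this rule, after their values were seen. The AGGTCA and D-box motifs were added later than the others.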

Additional observations from a re-analysis of the deposited data

Results flagged for a closer look

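Among 77 named genes, the 5 libraries of each of the 2 groups were searched for a highest or lowest library far from the rest (the gap to its nearest neighbour against the whole range). Chance flags about 1 in 20 groups, and 11 of 154 were found. In LPS+recAAT, Nr1d1 was at 111 CPM in 6103 (the other 4 at 78.1 to 87.2 CPM), Birc3, an inhibitor of apoptosis, at 88.2 CPM in 6101 (79.7 to 81.2 CPM), Tnfaip3, a brake on NF-kB, at 45.2 CPM in 6105 (49.9 to 51.1 CPM), and the liver gene Apoa1 at 0.384 CPM in 6105 (0.0675 to 0.146 CPM). The Nr1d1 value lies on the side of LPS+oxAAT and still below all 5 of its libraries.

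In LPS+oxAAT, replicate 5105 was the library far from the others for 5 genes. It had 30.3 CPM of Hspa1b, 18.1 CPM of Hspa1a, 19.7 CPM of Nr4a1 (the other 4 at 38.3 to 45.4 CPM), 49.7 CPM of the collagen gene Col5a1 (60.4 to 64.4 CPM) and 8.4 CPM of Nfil3 (3.74 to 5.08 CPM). Hc was at 562 CPM in 5102 (653 to 685 CPM) and Col14a1 at 69.9 CPM in 5103 (53.7 to 57.3 CPM). The part of replicate 5105 in the results was tested only by leaving it out: Nr1d1 and Igfbp3 stayed called over all libraries without it, and Cry1 became called.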

How the results depend on the processing

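Over all libraries, 3 genes were called. DESeq2's Wald test called 8, voom with quality weights 11 and the fit of only these 10 libraries 1, and omitting each library in turn called 2 to 4. Within the set, 4 were called, and 2 at an adjusted p under 0.01, 7 with no filter, 45 with the Wald test, 8 with voom and 2 when all libraries were fitted with the set as a term. Leaving out each library gave 1 to 9. The last digits of the mouse numbers did not pair the mice (2 of 5 pairs with r over 0.1, range -0.29 to 0.53, with 1 of 5 LPS+recAAT libraries closest to its own digit), and a replicate block by digit gave 4 calls over all libraries, Osgin1 among them, and 78 within the set, Dbp (adjusted p = 0.0308) and Arrdc2 (0.0437) among them. Nr1d1 kept its call in every alternative run.

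Clock gene values near 0 and the HSP70 genes changed sign in some alternatives. Hspa1a was 0.13 with voom. Cry2 was 0.03 with voom and 0.02 both with the set term and within the set. Rora was -0.07 with voom and -0.23 with the set term and within the set, and Clock was 0.02 with the block. With each library left out in turn, the ranges were -0.13 to 0.15 for Rora, -0.15 to 0.06 for Clock, -0.13 to 0.05 for Hlf, -0.01 to 0.18 for Per3, -0.05 to 0.08 for Tef, -0.08 to 0.02 for Cry2, -1.02 to 0.60 for Hspa1a and -1.45 to 0.68 for Hspa1b. Dbp was not called with library totals alone (adjusted p = 0.0526), no filter (0.0576), the block (0.177), only 10 libraries (0.44) or the set as a term (0.487), and Hgh1 not with the GC offset within the set (0.0634). Of 1804 values of named genes under alternatives, 1737 kept direction and call. The causes were not tested. Genes of a few CPM, such as Apoa2, are limited by depth.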

Other observations

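Gene groups that describe the make-up of the RNA more than the response to LPS held no called member either. All 20 ribosomal protein genes tested had positive differences between LPS+recAAT and LPS+oxAAT (median log2 fold change 0.18 over all libraries and 0.16 within the high mt-Nd6 set). All 10 mitochondrially encoded genes did as well (0.23 and 0.20), as did 24 of 26 RNA binding and splicing genes (0.10 and 0.20). Their summed levels overlapped, with the ribosomal list at 6250 to 9750 CPM in LPS+recAAT and 6430 to 7360 CPM in LPS+oxAAT. Adipose markers had negative differences in 8 of 9 members (-0.48 and -0.38), with a summed level of 315 to 490 CPM in LPS+recAAT and 373 to 524 CPM in LPS+oxAAT. B cell and plasma cell markers had a median of -0.17 over all libraries and 0.06 within the set. Ephb1, an ephrin receptor gene, had the most negative fitted difference among genes with a mean log2 CPM of at least 0, at -2.62 ± 0.88 (SE, edgeR adjusted p = 1). It averaged 1.61 CPM in LPS+recAAT and 9.94 CPM in LPS+oxAAT, and the groups overlapped. It was picked after its value was seen.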
